A study of Mus musculus with 6 samples.

Results

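Chemokines and their receptors were examined in RNA sequencing of injured Achilles tendon from neonatal mice. The members were a written list of 43 chemokine ligand and receptor genes, taken by gene symbol. Of these, 42 were among the 18099 genes of the deposited table, 29 of them ligands and 13 receptors, and Cxcl11 was not analysed here. The study compared 3 LysM-Cre; Ampkα1 fl/fl mice, here the LysM-Cre group, with 3 Ampkα1 fl/fl littermates, here the control group. In all mice the Achilles tendons were transected, and the repair tissue was taken a week later. The Ampkα1 alleles are floxed in both groups. Cre is made from the lysozyme M locus, which is active in myeloid cells such as macrophages, monocytes and neutrophils, and the RNA came from the whole tissue. Fewer cells of a type and less RNA per cell therefore cannot be told apart. The labels name the control mice only as littermates, and their genotype comes from the study's methods.

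Chemokines are small secreted proteins, in a few cases tethered to the membrane, that direct the migration of leukocytes by binding receptors coupled to inhibitory G proteins. Inflammatory chemokines are induced after injury by cytokines such as tumour necrosis factor and the interferons, and bring neutrophils, monocytes and lymphocytes into a wound. Homeostatic chemokines are made constitutively by stromal, endothelial and epithelial cells and position resident cells and stem cells. Atypical receptors bind the same ligands without G protein signalling and mostly remove them from the tissue.

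The 6 libraries held between 18076805 and 19479880 estimated reads, and 14261 genes passed the filter on low counts. Prkaa1, the gene of AMPKα1, had 740, 688 and 690 reads in the control mice and 626, 751 and 652 in the LysM-Cre mice (log2 fold change of the LysM-Cre group over the control group -0.08, standard error (SE) 0.09, edgeR adjusted p = 0.744). The groups overlapped, and the deletion was not detectable in Prkaa1 reads of the whole tissue. Lyz2, the gene whose locus carries Cre, had 7378, 7778 and 7372 reads in the control mice and 9, 15 and 8 in the LysM-Cre mice. Its log2 fold change was -9.46 (SE 0.17, edgeR adjusted p = 3.41e-06). Cre, the near absence of Lyz2 reads and the Ampkα1 deletion came together in these mice, and their effects cannot be told apart. All 8 markers of tendon fibroblasts were tested and summed to 95266 to 104875 CPM (CPM, read counts scaled to library size with TMM factors) in the control group and to 89506 to 106231 CPM in the LysM-Cre group. Skeletal muscle markers varied widely between mice, from 143 to 2402 CPM in the control group and from 817 to 7295 CPM in the LysM-Cre group.

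Of the 42 members, 34 passed the filter on low counts and were tested, and the 8 others had few reads in both groups (Cxcl1, Cxcl2, Cxcr2, Ccl17, Ccr3, Ccl19, Ccl20 and Cxcl13). None of the 34 passed edgeR's quasi-likelihood test at an adjusted p of 0.05, where 0.898% of all genes tested did, and the smallest adjusted p was 0.0628, for Cxcr4. At an unadjusted p under 0.05, 4 members were higher in the LysM-Cre group (Cxcr4, Cxcl10, Cxcl16 and Cxcl9) against 5.97% of all genes, and 5 were lower (Pf4, Ackr2, Ccl9, Ccr2 and Ackr3) against 8.55% of all genes. With DESeq2, where 4.77% of the genes with an adjusted p were called, 4 members passed: Cxcl10 (adjusted p = 4.12e-05), Cxcr4 (adjusted p = 0.0011), Cxcl16 (adjusted p = 0.00552) and Pf4 (adjusted p = 0.0136). All 3 LysM-Cre libraries lay above all 3 control libraries for 4 members (8.94% of all genes) and below them for 5 members (11.4% of all genes). For 3 mice against 3, the two-sided exact permutation test has 20 splits and cannot give a p below 0.1, the value of these 9 members. The fold changes of the 34 members ran from -0.92 (Cxcr3) to 1.7 (Cxcl10) on the log2 scale. Of the 34, 12 were higher and 22 lower, and their median was -0.19, where the median of all genes tested was -0.002. The 23 ligands had a median of -0.02, with 10 higher and 13 lower. The 11 receptors had a median of -0.30, with 2 higher and 9 lower.

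**Figure D1:**
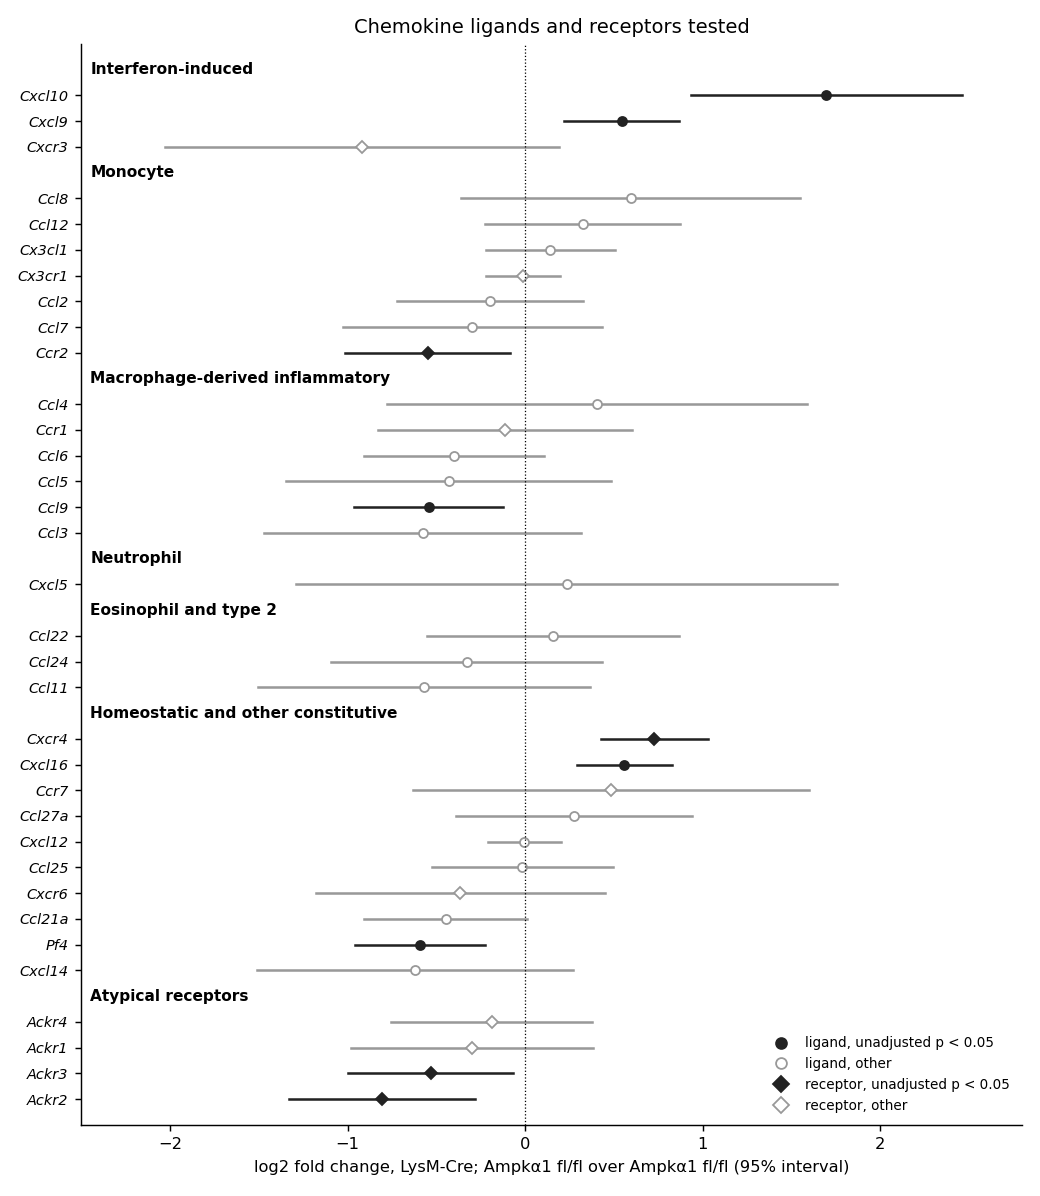
Log2 fold change (x axis, LysM-Cre group over control group) with its 95% interval from the edgeR fit for the 34 members tested, by group, 3 mice per genotype. Filled dark symbols mark the 9 members with an unadjusted p under 0.05, 4 to the right of 0 and 5 to the left, with Cxcl10 farthest from 0.

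By level per transcript length, 3 ligands made up most of the summed level of the ligands listed. Cxcl12, which holds stem cells and leukocytes that carry Cxcr4 in place, was at 371 ± 42 TPM (SD, n = 3), in the values that the authors scaled for transcript length, in the control group and at 359 ± 16.4 TPM in the LysM-Cre group. Pf4, the platelet factor that tissue macrophages also make, was at 327 ± 45.2 TPM and 225 ± 42.8 TPM. Ccl21a, a ligand of Ccr7 made by lymphatic endothelium, was at 187 ± 39.7 TPM and 139.8 ± 31.6 TPM. The ranges of Cxcl12 and Pf4 overlapped in the control group, and each was above every Ccl21a value of its group. Together the 3 ligands took 71.4% to 76.2% of the summed ligand TPM in the control libraries and 66.8% to 70.9% in the LysM-Cre libraries. The next ligands were far lower. In the control group they ran from Ccl6 at 36.2 ± 0.618 TPM through Ccl7, Cxcl16, Ccl11, Cxcl14, Ccl2, Ccl8 and Ccl9 to Ccl12 at 19.8 ± 3.74 TPM. The control values of Ccl6 lay just above those of Ccl7, and all other neighbours in this order overlapped. Among the receptors the atypical receptor Ackr3 was highest, at 54.2 ± 0.953 TPM in the control group and 38 ± 12.8 TPM in the LysM-Cre group. It took 34.2% to 35.1% of the summed receptor TPM in the control libraries and 24.8% to 31.2% in the LysM-Cre libraries. The share of Cxcr4 was 7.99% to 9.57% in the control libraries and 12.0% to 20.3% in the LysM-Cre libraries.

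**Figure D2:**
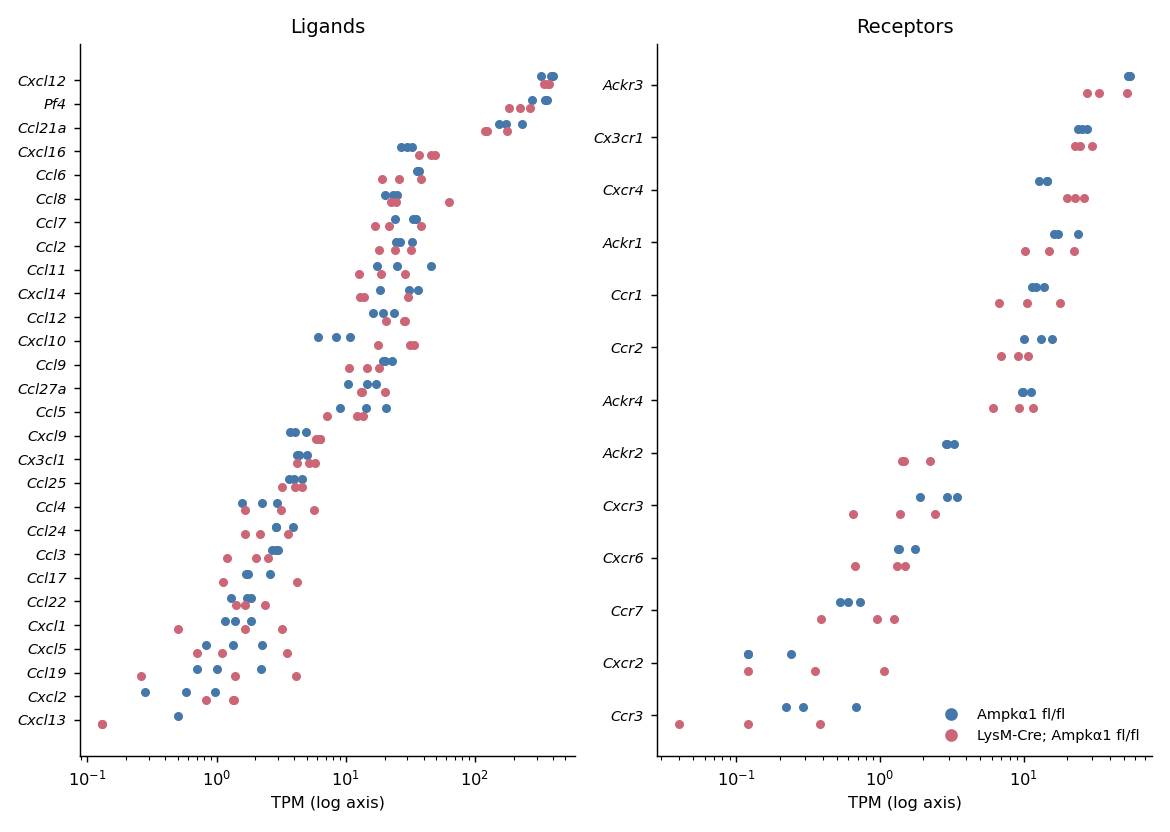
TPM on a log axis for the ligands (left) and receptors (right), 1 point per library, Ampkα1 fl/fl in blue and LysM-Cre; Ampkα1 fl/fl in red. Cxcl12, Pf4 and Ccl21a stand above the other ligands, Ackr3 is the highest receptor within each library although its lowest point lies below the highest of Cx3cr1, values of 0 cannot be drawn on this axis, and Ccl20, with 1 read in all, is left out.

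The interferon-induced group held Cxcl9 and Cxcl10, ligands of the receptor Cxcr3 on activated T cells and NK cells, and Cxcr3 itself. Cxcl10 was at 4.23, 3.39 and 2.36 CPM in the control mice and at 13.1, 6.65 and 12.6 CPM in the LysM-Cre mice. The groups did not overlap, and replicate 2 of the LysM-Cre group, at 6.65 CPM, was nearest to the control mice. Its mean was 3.24-fold higher in the LysM-Cre group (log2 fold change 1.7, SE 0.32, edgeR adjusted p = 0.0757, 95% interval 0.93 to 2.46). Without replicate 2 of the LysM-Cre group, the log2 fold change of Cxcl10 was 1.95 and its edgeR adjusted p 0.0314. Without any other single library Cxcl10 did not pass, and its largest edgeR adjusted p over the alternatives was 0.271. Cxcl9 was at 5.19, 4.97 and 6.31 CPM in the control mice and at 7.72, 7.9 and 8.38 CPM in the LysM-Cre mice, again without overlap and with the LysM-Cre mice close together (log2 fold change 0.54, SE 0.14, edgeR adjusted p = 0.136). Cxcr3 had 23, 42 and 34 reads in the control mice and 17, 28 and 8 in the LysM-Cre mice. The receptor thus had the opposite sign to its ligands, with overlapping groups (log2 fold change -0.92, SE 0.47, edgeR adjusted p = 0.433). Of the 10 markers of T and NK cells, 8 had reads in all 6 libraries, but only Cd4 and Lck had enough for a test. The list summed to 8.96 to 12.2 CPM in the control group and to 7.57 to 9.86 CPM in the LysM-Cre group. Most of each group's mean sum was Cd4, at 8.36, 6.56 and 9.16 CPM in the control mice and 6.99, 3.35 and 6.43 CPM in the LysM-Cre mice. Cd3g had only 9, 6 and 4 reads and 10, 9 and 4 reads, so the sum is a poor measure of T and NK cells. Cd4 was lower (log2 fold change -0.52, SE 0.28, edgeR adjusted p = 0.465), and so was Lck (log2 fold change -0.09, SE 0.52, edgeR adjusted p = 0.961). Cd8a had 0 to 1 reads in the control libraries and 1 to 5 in the LysM-Cre libraries. Cd3e went the other way, with 8, 4 and 3 reads in the control mice and 1, 1 and 2 in the LysM-Cre mice.

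**Figure D3:**
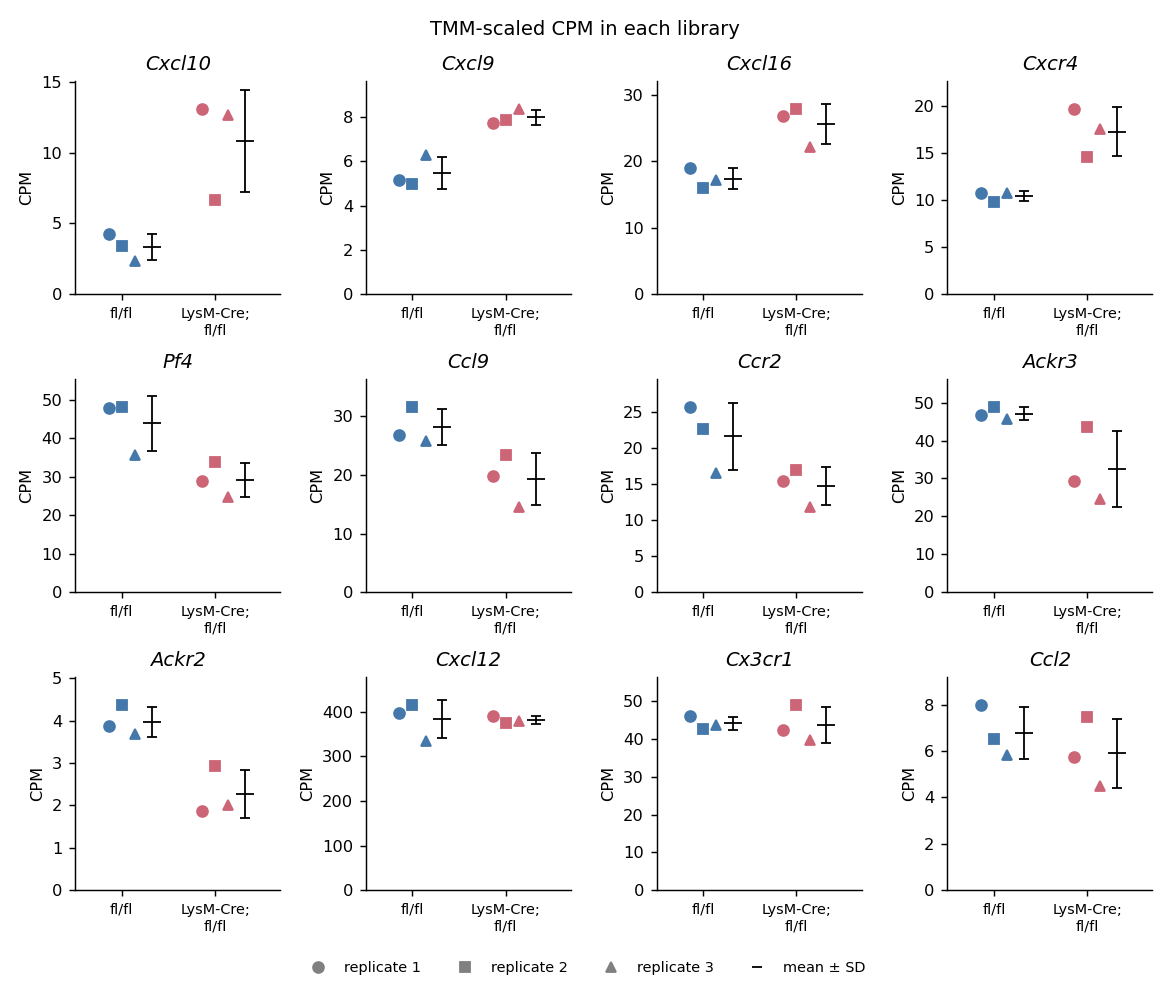
TMM-scaled CPM (y axis, from 0) of 12 members in each library, with the mean and SD beside the points and 1 symbol per replicate number. The LysM-Cre points of Cxcl10, Cxcl9, Cxcl16 and Cxcr4 lie above the control points, those of Pf4, Ccl9, Ackr3 and Ackr2 below, the ranges of the groups overlap for Ccr2, Cx3cr1 and Ccl2, and the LysM-Cre points of Cxcl12 lie within the control range.

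Cxcl9 and Cxcl10 lie beside each other on the minus strand of chromosome 5 (GRCm38.p6, Cxcl9 at chr5:92321331-92328079 and Cxcl10 at chr5:92346638-92348889). Their upstream sequences, the 250 bases before the RefSeq start, are shown because both ligands had higher values and the motifs of interferon and NF-κB signalling could be searched in them. Capitals mark a match on either strand to the core of the interferon-stimulated response element (ISRE, GAAANNGAAA), to the gamma-activated sequence (GAS, TTCNNNGAA) or to the κB consensus.
Cxcl10, chr5:92348890-92349139, minus strand: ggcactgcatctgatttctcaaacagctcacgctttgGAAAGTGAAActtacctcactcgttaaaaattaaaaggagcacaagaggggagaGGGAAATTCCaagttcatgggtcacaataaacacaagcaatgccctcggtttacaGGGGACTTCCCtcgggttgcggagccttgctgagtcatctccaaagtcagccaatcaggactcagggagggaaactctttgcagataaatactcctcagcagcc
Cxcl9, chr5:92328080-92328329, minus strand: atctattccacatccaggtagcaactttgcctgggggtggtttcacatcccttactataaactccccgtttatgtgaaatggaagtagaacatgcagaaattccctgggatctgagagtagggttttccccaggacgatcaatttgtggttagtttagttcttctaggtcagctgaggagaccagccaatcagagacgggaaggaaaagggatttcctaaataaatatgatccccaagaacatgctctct
The Cxcl10 window held 1 ISRE core, 213 to 204 bases before the start, and κB matches at 159 to 150 and at 104 to 95 bases before the start, the latter overlapping another match at 103 to 94. In the window of Cxcl9 none of the 3 patterns matched, and none matched in that of Cxcr4. Of all 32851 windows of this length, 2.98% held the ISRE core, 7.02% the GAS and 7.25% the κB consensus. Of the 33 members with a window, 3 held the ISRE core (Ccl19, Cxcl10 and Cxcl14), 2 the GAS (Ccl17 and Cxcl14) and 8 the κB consensus (Ackr2, Ccl20, Ccl9, Ccr1, Ccr3, Cxcl1, Cxcl10 and Cxcl2). A match is a description of the letters, and binding was not measured.

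Genes that induce chemokines were read from a list of 27 interferon, tumour necrosis factor and NF-κB pathway genes, of which 26 were in the table and 23 were tested. Of these 23, 15 were higher and 8 lower, and none passed the edgeR test, while DESeq2 called 2, against 4.77% of all genes. At an unadjusted p under 0.05, 4 were higher, against 5.97% of all genes, all of them in interferon signalling. None was lower at that p, against 8.55% of all genes. Stat2, a transcription factor of type I interferon signalling, was at 35.9, 41.6 and 33.2 CPM in the control mice and 57.1, 44.9 and 56.6 CPM in the LysM-Cre mice (log2 fold change 0.52, SE 0.12, edgeR adjusted p = 0.123). Irf9, which binds the ISRE together with Stat2, was at 31, 33 and 29.2 CPM and 40.5, 33.6 and 44.4 CPM (log2 fold change 0.35, SE 0.11, edgeR adjusted p = 0.216). In both genes, as in Cxcl10, the groups did not overlap and replicate 2 was the lowest of the LysM-Cre mice. Ifng, the gene of interferon gamma, had 0, 2 and 1 reads in the control mice and 1, 0 and 0 in the LysM-Cre mice, which is at or under 3 reads in every library. Tnf, which encodes tumour necrosis factor, had 24, 25 and 13 reads and 19, 27 and 17 reads (log2 fold change 0.01, SE 0.35, edgeR adjusted p = 0.997).

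In the monocyte group, 3 of 7 members were higher and 4 lower, and their log2 fold changes had a median of -0.01. None passed the edgeR test or was called by DESeq2, and 1, Ccr2, was lower at an unadjusted p under 0.05, against 8.55% of all genes. Ccr2, the receptor by which inflammatory monocytes leave the bone marrow and enter tissue, was at 25.8, 22.6 and 16.6 CPM in the control mice and at 15.4, 17 and 11.9 CPM in the LysM-Cre mice. The highest LysM-Cre value lay just above the lowest control value (log2 fold change -0.55, SE 0.20, edgeR adjusted p = 0.262). Its main ligand Ccl2 was at 7.99, 6.5 and 5.81 CPM and 5.74, 7.46 and 4.49 CPM, with overlapping groups (log2 fold change -0.20, SE 0.22, edgeR adjusted p = 0.741). Ccl7, another Ccr2 ligand, was at 7.99, 8.52 and 5.65 CPM and 5.11, 8.82 and 4.11 CPM (log2 fold change -0.30, SE 0.31, edgeR adjusted p = 0.719). Ccl12, which mice have in addition to Ccl2, was at 2.17, 2.57 and 1.7 CPM and 2.92, 2.92 and 2.22 CPM (log2 fold change 0.32, SE 0.23, edgeR adjusted p = 0.587). The ligands of Ccr2 thus showed no common direction. Ccl8, encoded in the same cluster, was at 2.49, 2.24 and 1.86 CPM and 2.24, 5.57 and 2.16 CPM. Its difference (log2 fold change 0.60, SE 0.40, edgeR adjusted p = 0.557) rested on replicate 2 of the LysM-Cre group, and the log2 fold change was 0.003 without that library.

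Cx3cr1, carried by patrolling monocytes and by many resident macrophages, was at 46.1, 42.5 and 43.6 CPM in the control mice and at 42.3, 49 and 39.8 CPM in the LysM-Cre mice. The interval of its log2 fold change was narrow, -0.22 to 0.20, around -0.01 (edgeR adjusted p = 0.971), and its sign changed when replicate 1 of either group or replicate 3 of the LysM-Cre group was left out. Cx3cl1, the membrane-tethered ligand of Cx3cr1, was at 7.04, 6.39 and 5.92 CPM and 8.19, 7.08 and 6.05 CPM (log2 fold change 0.14, SE 0.15, edgeR adjusted p = 0.737). The 12 macrophage markers, all tested, were lower for 9 and higher for 3 (Cd68, Fcgr1 and Mertk), with none past the edgeR threshold. At an unadjusted p under 0.05, 6 were lower against 8.55% of all genes. At that p, 1 was higher (Mertk, a receptor for the uptake of dying cells) against 5.97% of all genes. DESeq2 called 4, against 4.77% of all genes. The 12 markers summed to 1179 to 1228 CPM in the control group and to 764 to 993 CPM in the LysM-Cre group, without overlap. Csf1r, the growth factor receptor of the lineage, was at 239, 244 and 268 CPM and 171, 184 and 128 CPM. Mrc1 was at 237, 243 and 197 CPM and 128, 160 and 93.8 CPM, and these genes had the highest control means of the list. Cd68 went the other way, at 46.8, 37.6 and 46.7 CPM and 59.2, 43.3 and 53.8 CPM, with overlapping groups (log2 fold change 0.25, SE 0.14, edgeR adjusted p = 0.459). The 6 monocyte markers summed to 7668 to 8795 CPM and 9778 to 12372 CPM, higher in every LysM-Cre library. Nearly all of that was Fn1, a matrix gene, and without it, a choice made after its values were seen, the list summed to 18.9 to 21.1 CPM and 14.4 to 26.3 CPM. The part of cell numbers in the chemokine values was not tested.

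Of the 6 inflammatory members known from macrophages, 5 were lower and 1 higher, with a median log2 fold change of -0.42. Ccl9, a rodent chemokine that binds Ccr1, was at 26.8, 31.6 and 25.8 CPM in the control mice and at 19.8, 23.4 and 14.5 CPM in the LysM-Cre mice, without overlap (log2 fold change -0.54, SE 0.18, edgeR adjusted p = 0.221). Its close relative Ccl6 was at 19.8, 21.1 and 19.8 CPM and 14.4, 20.7 and 10.9 CPM, where replicate 2 of the LysM-Cre group lay among the control mice (log2 fold change -0.40, SE 0.21, edgeR adjusted p = 0.454). Their shared receptor Ccr1 averaged 15.8 ± 1.5 CPM (SD, n = 3) and 14.6 ± 6.59 CPM, and without replicate 3 of the LysM-Cre group its log2 fold change turned from -0.11 to 0.15. Ccl3, a ligand of Ccr1, lay below the control group in all 3 LysM-Cre libraries, at 5 to 11 reads against 12 to 13 (log2 fold change -0.58, SE 0.38, edgeR adjusted p = 0.541). Ccl4, its neighbour in the genome, had 7, 7 and 12 reads and 11, 6 and 18 reads (log2 fold change 0.40, SE 0.50, edgeR adjusted p = 0.773). The Ccl3 and Ccl4 gene models overlap on chromosome 11, so reads in the shared stretch are uncertain between them. Ccl5, made by T cells and macrophages, averaged 1.54 ± 0.539 CPM (SD, n = 3) and 1.14 ± 0.391 CPM, with overlapping groups.

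The neutrophil group was near the limit of what these libraries could measure. Cxcl5, a ligand of Cxcr2, was the only one of its 4 members tested, at 1.48, 0.929 and 0.548 CPM in the control mice and 0.469, 2.27 and 0.757 CPM in the LysM-Cre mice. Its interval, -1.29 to 1.76 on the log2 scale, covered both directions (log2 fold change 0.23, SE 0.64, edgeR adjusted p = 0.914). Cxcl1 had 7, 11 and 8 reads in the control mice and 10, 18 and 3 in the LysM-Cre mice, and Cxcl2 had 7, 2 and 4 and 10, 9 and 6. Cxcr2, the receptor by which neutrophils follow these ligands, had 3, 6 and 3 and 9, 26 and 3 reads, highest in replicate 2 of the LysM-Cre group. Neutrophil markers also varied widely within the groups, with summed levels of 10.7 to 49.8 CPM and 12.4 to 52.8 CPM. Of the 10 markers, 4 had reads in all 6 libraries, and Ly6g, Mpo, Elane, Ngp, Ltf and Camp were at 0 in at least 1 library.

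Among the 5 eosinophil and type 2 members, 3 were tested, 1 higher and 2 lower, with a median log2 fold change of -0.33. Ccl11, eotaxin, had 179, 124 and 308 reads in the control mice and 134, 193 and 90 in the LysM-Cre mice, and its spread within the groups exceeded the difference (log2 fold change -0.57, SE 0.39, edgeR adjusted p = 0.568). Ccl24, a second eotaxin, averaged 1.19 ± 0.0696 CPM (SD, n = 3) and 0.946 ± 0.354 CPM (log2 fold change -0.33, SE 0.32, edgeR adjusted p = 0.699). Ccl22, a Ccr4 ligand of dendritic cells and macrophages, averaged 1.21 ± 0.238 CPM (SD, n = 3) and 1.35 ± 0.372 CPM (log2 fold change 0.16, SE 0.30, edgeR adjusted p = 0.867). Ccl17, the other Ccr4 ligand, had 5, 3 and 3 and 2, 7 and 0 reads, and Ccr3, the eotaxin receptor, 6, 8 and 18 and 11, 3 and 1 reads. Of the 8 eosinophil and mast cell markers the 5 tested were all genes known from mast cells and all were lower. Only Cma1, a mast cell chymase, passed the edgeR test (log2 fold change -1.3, SE 0.20, edgeR adjusted p = 0.0431), and in the blocked fit, which adds the replicate number as a term, Cpa3 and Mcpt4 passed too. DESeq2 called 4 of the 5, against 4.77% of all genes. The list summed to 365 to 520.2 CPM in the control group and 155 to 244 CPM in the LysM-Cre group, while the eosinophil genes Siglecf, Epx and Prg2 had too few reads for a test. How these cells bear on the Ccl11 and Ccl24 values was not tested.

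Cxcl12, the chemokine with the highest TPM, was at 399, 416 and 336 CPM in the control mice and at 390.2, 374 and 380.5 CPM in the LysM-Cre mice. Each LysM-Cre value lay within the control range, and the interval of the log2 fold change was -0.21 to 0.20 around -0.01 (edgeR adjusted p = 0.984). The sign changed when replicate 1 or 2 of the control group or replicate 2 of the LysM-Cre group was left out. Its signalling receptor Cxcr4, which leukocytes, endothelial and progenitor cells carry, was at 10.7, 9.83 and 10.7 CPM in the control mice and at 19.7, 14.5 and 17.5 CPM in the LysM-Cre mice. The groups did not overlap, and the mean was 1.65-fold higher in the LysM-Cre group (log2 fold change 0.73, SE 0.13, edgeR adjusted p = 0.0628, 95% interval 0.42 to 1.03). Without replicate 2 of the LysM-Cre group its log2 fold change was 0.83 and its edgeR adjusted p 0.0302. Without any other single library Cxcr4 did not pass, and its largest edgeR adjusted p over the alternatives was 0.240. Ackr3, the atypical receptor that removes Cxcl12, was at 46.6, 48.9 and 45.6 CPM and 29.3, 43.6 and 24.6 CPM, with all LysM-Cre values below the control values and replicate 2 nearest to them (log2 fold change -0.53, SE 0.20, edgeR adjusted p = 0.278). Without that library its log2 fold change was -0.80 and its edgeR adjusted p 0.0279. Ackr3 did not pass without any other single library either, and its largest edgeR adjusted p over the alternatives was 0.576. The fold changes of these receptors had opposite signs, and neither passed the edgeR test with all 6 libraries. Taken as a ratio within a library, a description chosen after the values were seen, Cxcr4 CPM over Ackr3 CPM was 0.229, 0.201 and 0.236 in the control mice and 0.672, 0.333 and 0.712 in the LysM-Cre mice.

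The reads of Cxcl12 (chr6:117168535-117181368, plus strand) were spread over 3 transcripts whose proteins differ at their end. All 3 share their first 267 coding bases and then differ. The coding ends are shown because they are what tells the forms apart, with the last 12 shared bases in lower case and the bases of each form, up to its stop codon, in capitals (GENCODE M21, GRCm38).
Cxcl12-201: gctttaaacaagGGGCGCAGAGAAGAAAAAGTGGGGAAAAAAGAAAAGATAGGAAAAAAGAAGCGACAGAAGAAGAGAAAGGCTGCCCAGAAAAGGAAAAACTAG
Cxcl12-202: gctttaaacaagTAA
Cxcl12-203: gctttaaacaagAGGCTCAAGATGTGA
Cxcl12-202, with 270 coding bases, took 54.9, 58 and 53.9 percent of the Cxcl12 reads in the control mice and 49.7, 52.7 and 46.5 percent in the LysM-Cre mice. Cxcl12-203, with 282 coding bases, took 29.1, 28 and 28 percent and 36.8, 32.4 and 37.7 percent. The share of the first form was lower and that of the second higher in every LysM-Cre library than in every control library. Cxcl12-201, whose 360 coding bases add a tail rich in lysine and arginine codons, took 16, 14 and 18.1 percent and 13.6, 14.8 and 15.8 percent, and its groups overlapped. The shares add up to the whole and so do not vary independently. They count reads without scaling for transcript length, which is 5627 bases for Cxcl12-201, 1878 for Cxcl12-202 and 3132 for Cxcl12-203. By TPM the forms, in that order, took 6.12, 73.4 and 20.4 percent in the control group. In the LysM-Cre group they took 5.81, 67.7 and 26.4 percent of the TPM. All these shares rest on the authors' assignment of reads to transcripts, and only the summed gene was tested across all genes.

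**Figure D4:**
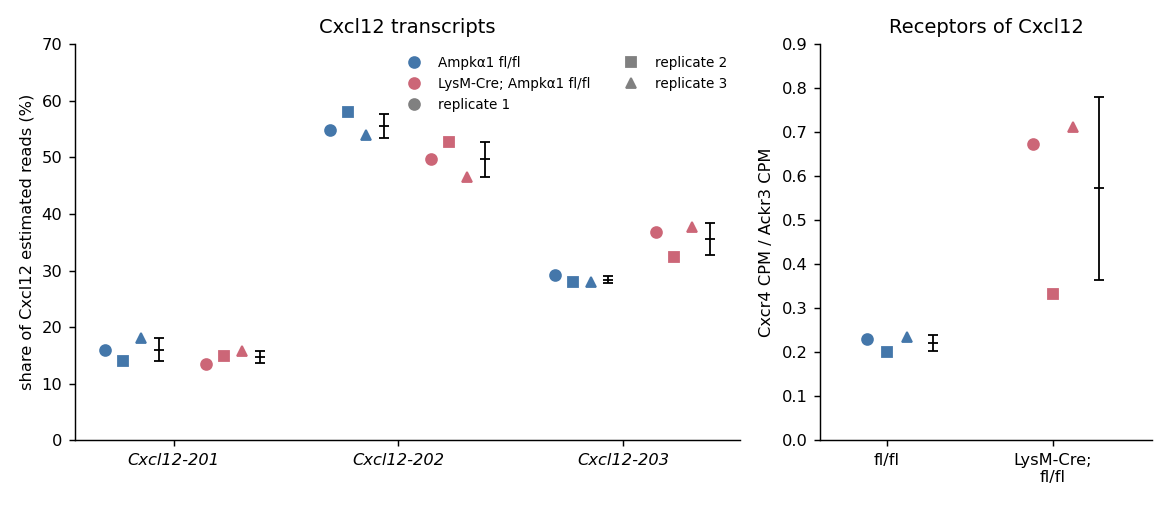
Left, share of the estimated Cxcl12 reads (y axis, percent) given to each of 3 transcripts, and right, ratio of Cxcr4 CPM to Ackr3 CPM, per library with mean and SD (n = 3). The LysM-Cre points lie below the control points for Cxcl12-202 and above them for Cxcl12-203 and for the receptor ratio.

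Cxcl16 is made as a transmembrane protein by macrophages and endothelium and binds Cxcr6 on T cells and NK cells. It was at 19, 16 and 17.2 CPM in the control mice and at 26.8, 27.9 and 22.2 CPM in the LysM-Cre mice, without overlap. The mean was 1.47-fold higher in the LysM-Cre group (log2 fold change 0.56, SE 0.11, edgeR adjusted p = 0.0871, 95% interval 0.29 to 0.83). Cxcr6 averaged 1.17 ± 0.180 CPM (SD, n = 3) in the control group and 0.906 ± 0.320 CPM in the LysM-Cre group, with overlapping groups. Its sign was opposite to that of its ligand, but its interval covered both directions (log2 fold change -0.37, SE 0.34, edgeR adjusted p = 0.686, 95% interval -1.18 to 0.45). Cxcr3, described above, also had the opposite sign to its ligands with overlapping groups.

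Pf4 was at 47.8, 48.2 and 35.6 CPM in the control mice and at 28.8, 33.7 and 24.8 CPM in the LysM-Cre mice. The highest LysM-Cre value lay below the lowest control value, and the mean was 66.4% of the control mean (log2 fold change -0.59, SE 0.15, edgeR adjusted p = 0.146, 95% interval -0.96 to -0.23). With the replicate number as a block, its edgeR adjusted p was 0.0634. Of 5 platelet and megakaryocyte markers, 3 were tested (Itga2b, Gp1bb and Ppbp) and all 3 were lower, with none called by edgeR or DESeq2. Of these, 2 (Itga2b and Ppbp) had an unadjusted p under 0.05, against 8.55% of all genes lower. The list summed to 11.8 to 14.2 CPM and 6.16 to 9.33 CPM. Gp9 was at 0 in 1 LysM-Cre library. Gp5 had 2, 3 and 10 reads in the control mice and 5, 8 and 9 in the LysM-Cre mice, a higher mean with overlapping groups. Ppbp, the other platelet chemokine and itself on this list, was far scarcer than Pf4. It had 29, 27 and 13 reads in the control mice and 11, 13 and 11 in the LysM-Cre mice (log2 fold change -0.99, SE 0.37, edgeR adjusted p = 0.286). The sums of the platelet list and of the macrophage list above were both lower with Pf4, and their part in its value was not tested. Pf4 and Cxcl16 each have a duplicate entry in the table that holds an equal share of the reads, and both entries were summed.

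Ccl21a guides dendritic cells and T cells that carry Ccr7 into lymphatic vessels. It was at 48.1, 64.5 and 41.6 CPM in the control mice and at 33.6, 46.1 and 33.3 CPM in the LysM-Cre mice, with overlapping groups (log2 fold change -0.45, SE 0.19, edgeR adjusted p = 0.353). Its near-identical copy Ccl21c was lower as well, at 4.44, 6.94 and 4.39 CPM and 2.76, 2.81 and 1.89 CPM (log2 fold change -1.08, SE 0.26, edgeR adjusted p = 0.128), and how reads were split between the copies is uncertain. All 5 markers of lymphatic endothelium were lower, 4 of them at an unadjusted p under 0.05, against 8.55% of all genes, and none past the edgeR threshold. DESeq2 called 4, against 4.77% of all genes, and Lyve1 passed in the blocked fit. The 5 markers summed to 152 to 177 CPM in the control group and 91 to 125 CPM in the LysM-Cre group. Prox1, the transcription factor that defines these cells, was at 14.3, 12.2 and 10.3 CPM and 7.25, 7.46 and 7.89 CPM. The part of lymphatic endothelium in the Ccl21a values was not tested. Ccr7 averaged 0.505 ± 0.0850 CPM (SD, n = 3) and 0.708 ± 0.362 CPM (log2 fold change 0.48, SE 0.47, edgeR adjusted p = 0.698), and its other ligand Ccl19 had 3, 4 and 8 and 5, 15 and 1 reads.

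Cxcl14, made by fibroblasts and epithelia, averaged 22.1 ± 7.08 CPM (SD, n = 3) in the control group and 14.4 ± 7.08 CPM in the LysM-Cre group (log2 fold change -0.62, SE 0.38, edgeR adjusted p = 0.51). Ccl25, the Ccr9 ligand known from thymus and gut, averaged 1.64 ± 0.112 CPM (SD, n = 3) and 1.62 ± 0.215 CPM, and Ccl27a, a Ccr10 ligand of skin that shares sequence with Ccl27b, averaged 1.67 ± 0.315 CPM (SD, n = 3) and 2.03 ± 0.556 CPM. Neither differed beyond the spread between mice. Cxcl13, which draws B cells, had 4, 0 and 0 reads in the control mice and 0, 1 and 1 in the LysM-Cre mice. Ccl20, the Ccr6 ligand, had 1 read, in 1 LysM-Cre library. A group with at most 3 reads in each of its libraries was only marked as low, and its reads are given as counted.

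All 4 atypical receptors were lower in the LysM-Cre group, with log2 fold changes from -0.81 to -0.19 and a median of -0.42. None passed the edgeR test or was called by DESeq2, and 2 were lower at an unadjusted p under 0.05, against 8.55% of all genes. Ackr2, which takes up inflammatory CC chemokines and is known from lymphatic endothelium, was at 3.86, 4.37 and 3.67 CPM in the control mice and at 1.88, 2.92 and 2.0 CPM in the LysM-Cre mice. The groups did not overlap, and the mean was 57.1% of the control mean (log2 fold change -0.81, SE 0.22, edgeR adjusted p = 0.161, 95% interval -1.33 to -0.28). Ackr2 went with the lower lymphatic endothelial markers given above. Ackr1, which presents chemokines on venules and also sits on red cells, averaged 8.09 ± 1.9 CPM (SD, n = 3) and 6.57 ± 2.34 CPM, with overlapping groups (log2 fold change -0.30, SE 0.29, edgeR adjusted p = 0.695). Erythroid markers were lower for 7 of 7 genes, 6 of them past the edgeR threshold, against 0.898% of all genes, and 1, Hbb-bs, with the replicate number as a block. They summed to 1997 to 2973 CPM and 676 to 983 CPM. Markers of blood endothelium were lower for 6 of 6, with none past the edgeR threshold. Of these 6, 1 had an unadjusted p under 0.05, against 8.55% of all genes lower, and DESeq2 called 1, against 4.77% of all genes. The blood endothelial list summed to 702 to 758 CPM and 652 to 662 CPM. The part of these cells in the Ackr1 and Ackr2 values was not tested. Ackr4, which removes the ligands of Ccr7 and Ccr9, averaged 9.31 ± 0.628 CPM (SD, n = 3) and 8.17 ± 2.68 CPM (log2 fold change -0.19, SE 0.24, edgeR adjusted p = 0.779), and its log2 fold change was 0.04 without replicate 2 of the LysM-Cre group.

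**Figure D5:**
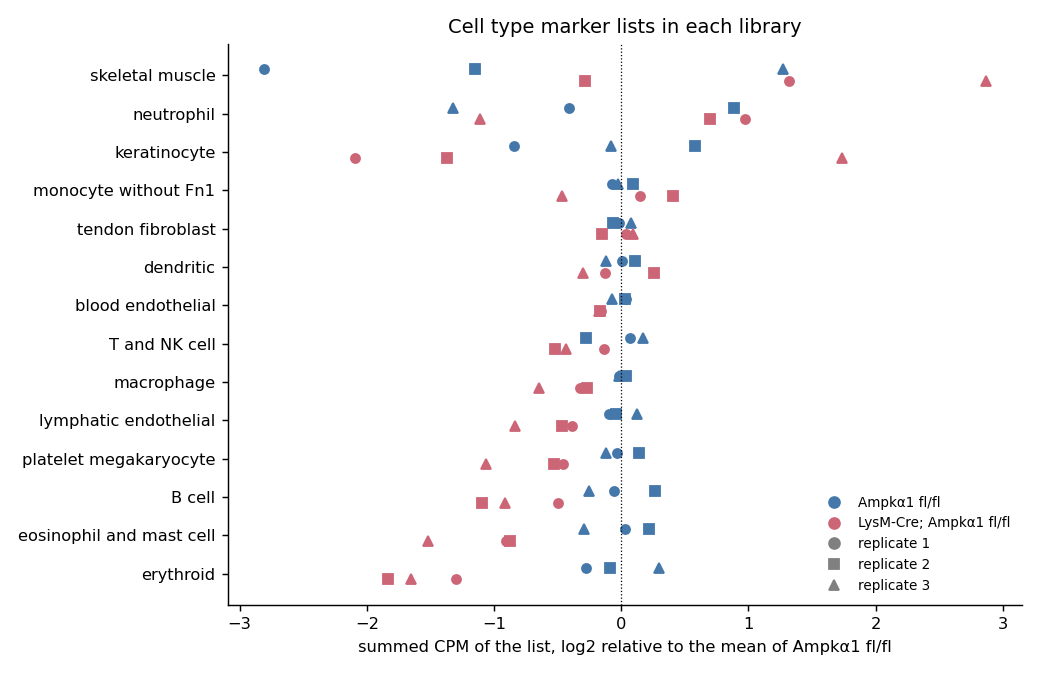
Summed CPM of 14 marker lists in each library, as log2 relative to the mean of the Ampkα1 fl/fl libraries (x axis), with 1 symbol per replicate number and the monocyte list shown without Fn1. The red points of the macrophage, lymphatic endothelial, platelet, mast cell, B cell, blood endothelial and erythroid lists lie left of the blue points, while the muscle, neutrophil and keratinocyte lists spread widely within both genotypes.

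Many chemokine genes lie in clusters, and neighbours did not share a direction throughout. In the first cluster on chromosome 11 (Ccl2, Ccl7, Ccl11, Ccl12 and Ccl8), 2 of 5 members were higher and 3 lower. In the second (Ccl5, Ccl9, Ccl6, Ccl3 and Ccl4), 1 was higher and 4 were lower, from -0.58 to 0.40 on the log2 scale. The receptor cluster on chromosome 9 (Cxcr6, Ccr1, Ccr3 and Ccr2) had 3 members tested, all lower, from -0.55 to -0.11. Cxcl9 and Cxcl10 on chromosome 5 were both higher, as were Ccl22 and Cx3cl1 on chromosome 8, whose neighbour Ccl17 was not tested. The tested neighbours Ccl27a and Ccl21a on chromosome 4 had 1 higher and 1 lower, as had Cxcl5 and Pf4 on chromosome 5.

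Ligands and receptors outside the list were mostly too scarce to test. Of 9 other ligands in the table, 4 were tested, 3 of them lower and none past the edgeR threshold. At an unadjusted p under 0.05, 2 were lower (Ccl21c and Ppbp), against 8.55% of all genes. DESeq2 called 1 (Ccl21c), against 4.77% of all genes. Of 10 other receptors, 3 were tested, none with an unadjusted p under 0.05 and none called by edgeR or DESeq2. Ccrl2, a non-signalling relative, had 21, 28 and 16 reads in the control mice and 37, 21 and 36 in the LysM-Cre mice (log2 fold change 0.51, SE 0.33, edgeR adjusted p = 0.536), and Xcr1, the receptor of cross-presenting dendritic cells, 15, 14 and 21 and 18, 22 and 9 reads (log2 fold change -0.05, SE 0.39, edgeR adjusted p = 0.972).

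Genes that carry the signal inside the cell were read from a list of 24, covering G proteins, arrestins, receptor kinases and the route to Rac. All 24 were tested, 5 were higher and 19 lower, their median log2 fold change was -0.11, and none passed the edgeR test. At an unadjusted p under 0.05, 1 was higher against 5.97% of all genes, and 7 were lower against 8.55% of all genes. DESeq2 called 1, Rac2, against 4.77% of all genes. Rac2, the Rac form of blood cells, was at 30.3, 32.6 and 33.3 CPM in the control mice and at 22.6, 24.6 and 18.7 CPM in the LysM-Cre mice (log2 fold change -0.54, SE 0.11, edgeR adjusted p = 0.0869). Arrb1, an arrestin that ends receptor signalling, was at 75.4, 78.5 and 76.7 CPM and 64.8, 65.5 and 50.9 CPM (log2 fold change -0.35, SE 0.10, edgeR adjusted p = 0.18). Pik3cg, the phosphoinositide kinase downstream of these receptors in leukocytes, was at 16.9, 18 and 15.1 CPM and 10.2, 13.6 and 8.16 CPM (log2 fold change -0.64, SE 0.19, edgeR adjusted p = 0.182). In each of these the groups did not overlap. They were lower together with most of the macrophage markers, and this link was not tested.

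Single mice carried unequal weight. In the LysM-Cre group, replicate 2 had the highest value of the 3 for 21 of the 34 members tested, and replicate 3 had the lowest for 22. The sum of the macrophage list followed the same order, with 993 CPM in replicate 2, 957 in replicate 1 and 764 in replicate 3. The skeletal muscle list had the reverse order, with 817, 2492 and 7295 CPM. Not every macrophage marker kept that order, and Cd68 was lowest in replicate 2. Without replicate 2, 3 members passed the edgeR threshold (Cxcl10, Cxcr4 and Ackr3), where 1.91% of all genes did. In that fit 15 of 35 tested had an unadjusted p under 0.05, 4 higher against 9.12% of all genes and 11 lower against 10.4% of all genes. The 11 were Ackr2, Ackr3, Ccl21a, Ccl6, Ccl7, Ccl9, Ccr1, Ccr2, Cxcl14, Cxcr3 and Pf4. Without any other single library, no member passed and 6 to 9 had an unadjusted p under 0.05, against 10.1% to 16.1% of all genes. Cxcl9, Cxcl10, Cxcl16 and Cxcr4 were the 4 higher members at that threshold in each of these fits.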

How the data were processed

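The authors deposited, for 65053 RefSeq transcripts, an estimated count of reads that is not normalized and a TPM value scaled for transcript length and library size. The submitters' processing notes name the build GRCm38.p6, and the aligner and counting tool are not given in the sources used here. A total of 20 further columns (FPKM, normalized counts and group averages) were not used. The libraries were made from total RNA and sequenced on the BGISEQ platform by Wuhan Huada, 3 per group, with 18076805 to 19479880 reads.

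Estimated counts were summed per gene and rounded, giving 18099 genes, of which 18049 (99.72%) had a symbol in RefSeq's GRCm38.p6 annotation. TPM were summed per gene. Genes were tested with edgeR 4.0.16 in R 4.3.3 (TMM, filterByExpr, quasi-likelihood F test, Benjamini-Hochberg adjustment over 14261 genes, threshold 0.05), and the exact permutation test used log2(CPM + 0.5). Scripts were tested on simulated data. Promoters came from RefSeq (33 of 42 members matched) without the 50 bases after the start, and Cxcl12 transcripts from GENCODE M21.

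Values in every library are given for members among the 12 smallest p or the 6 highest TPM, for those of the interferon-induced, monocyte and neutrophil groups that were tested, and for those at or under 3 reads in 1 group only, and of each pathway list the 3 with the smallest p are described, except for items that are not reported here. Other members are named by group. The members and lists were chosen with earlier results of these data known. The alternatives were DESeq2 1.42.0, RLE and upper-quartile scaling, no low-count filter, at least 10 reads in every sample, the replicate number as a block, each library left out, and pseudocounts of 0.1 and 2. The groups share replicate numbers in the labels. Deviations from the group means correlated at 0.184, 0.118 and 0.31 between same-numbered libraries, each over 0.1. Between different-numbered ones the values ran from -0.55 to 0.501, so that not every library correlated best with its own number. The numbers were treated as pairs only in the blocked fit, and the main fit had no block. What the shared numbers stand for is not stated, and p-values measure the spread between these mice.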

Additional observations from a re-analysis of the deposited data

How the results depend on the processing

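No member passed the edgeR threshold with RLE or upper-quartile scaling, with no low-count filter or a stricter one, or with the replicate block, whereas DESeq2 called 4 members. Leaving out 1 library at a time gave 0 to 3 called members and 6 to 15 at an unadjusted p under 0.05, with the upper values without replicate 2 of the LysM-Cre group. Over all genes, 680 were called with DESeq2, 47 with the replicate block, and 8 to 276 with 1 library left out, against 128. The replicate block, in the pairing by number, changed no call of a member. Over 12 alternatives, 382 of 403 fold changes of single members kept their sign and their side of the threshold, 7 passed it and 14, of 8 members, changed sign, all with 1 library left out. Their log2 fold changes then lay between -0.10 and 0.052 for Cx3cr1, -0.060 and 0.72 for Ccl4, -0.52 and 0.15 for Ccr1, -0.68 and 0.65 for Cxcl5, -0.091 and 0.29 for Ccl22, -0.12 and 0.076 for Ccl25, -0.093 and 0.056 for Cxcl12 and -0.44 and 0.036 for Ackr4. The median of the eosinophil and type 2 group moved from -0.33 to -0.13 without replicate 3 of the control group and to -0.67 without replicate 2 of the LysM-Cre group, and that of the atypical receptors from -0.42 to -0.70 without the latter. The number of members whose exact permutation p was the smallest possible was 9 with each pseudocount. The causes were not tested. At these read totals, 8 members could not be tested.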

Other observations

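Some values outside the comparisons were noticed after the data were seen and are given without a test. The ratio of Cxcl10 CPM to Cxcl9 CPM within a library was 0.816, 0.681 and 0.374 in the control mice and 1.7, 0.842 and 1.51 in the LysM-Cre mice, so that every LysM-Cre value was above every control value. Cxcl3, a Cxcr2 ligand that is not on the list of 43 and had too few reads for the test, had 2, 2 and 0 reads in the control mice and 8, 18 and 5 in the LysM-Cre mice. Gzma, a granzyme of NK cells and cytotoxic T cells, had 1, 1 and 1 and 4, 5 and 7 reads. In the same marker list Cd3e went the other way, as given above, and the summed list overlapped between the groups.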
